A study of Homo sapiens with 6 samples.

Results

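The genes described here encode the subunits of oxidative phosphorylation, the chain of protein complexes I to V in the inner mitochondrial membrane. They were taken as the protein-coding rows whose symbol begins with NDUFA, NDUFB, NDUFC, NDUFS or NDUFV and a digit, UQCR, COX4 to COX8 or ATP5, is one of SDHA to SDHD or CYC1, or belongs to the mitochondrially encoded ND, CO, ATP and CYB genes. This gave 103 of 61895 rows, of which 90 are nuclear genes and 13 are mitochondrially encoded. Cells of the line PC3, derived from human prostate cancer and able to grow without androgen, carried either a lentiviral short hairpin RNA against CTSZ (shCTSZ, 3 libraries) or a control vector (shControl, 3 libraries), and both populations were selected with an antibiotic as stable lines. CTSZ encodes cathepsin Z, a lysosomal cysteine protease, and the series asks how its knockdown alters the secretion of cytokines. The labels give neither the hairpin's sequence nor the number of hairpins or clones, and leave unsaid if replicates are separate cultures, so that the spread between them may be technical.

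Complexes I, III and IV pass electrons from NADH to oxygen and pump protons, complex II feeds in electrons from succinate without pumping, and complex V, the ATP synthase, uses the proton gradient to make ATP. The subunits are made from both genomes: the mitochondrial DNA supplies a few membrane-embedded core proteins of complexes I, III, IV and V, and all other subunits, including the whole of complex II, are encoded in the nucleus and imported. Nuclear subunits divide into catalytic or core proteins, conserved from bacteria, and accessory proteins around them.

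Levels are in TPM, the authors' length-corrected unit in which each library has the same total. A value is thus a share of the transcripts estimated, whatever their length, and not of the mass of RNA. The targeted gene was checked first: CTSZ fell from 92.8 ± 2.1 to 19.9 ± 1.7 TPM (mean ± SD, n = 3 and 3; adjusted p = 2.49e-05, limma). Among markers of the line, KRT8, KRT18, CD44 and VIM stood at 339 TPM or more in every library. KRT8 averaged 1256 ± 5.4 TPM in shControl and 2304 ± 98 TPM in shCTSZ libraries, a rise of 0.87 on the log2 scale (adjusted p = 2.70e-05) and a larger change than that of any oxidative phosphorylation gene, and KRT18 and CD44 rose by 0.29 and 0.36. EPCAM, also chosen as a marker present in the line, was however at 0.22 TPM or less in every library. HOXB13, chosen as low or absent, was at 0.04 TPM or less in every library, and KLK3, chosen likewise, was listed at 0. Of markers of immune, endothelial and fibroblast cells, PTPRC, CD3E, PECAM1, COL1A2 and DCN were at 0.36 TPM or less in every library, and CD68, which lysosomes of many cells hold, was at 10.3 to 13.8 TPM. CDH5 was at 1.14 to 1.16 TPM in shControl and 1.37 to 1.54 TPM in shCTSZ libraries, and COL1A1 at 1.26 to 1.69 and 0.23 to 0.69 TPM. The part of these marker differences in the results was not tested. In bulk RNA fewer cells of a kind and less RNA per cell cannot be told apart.

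Subunit mRNAs were mostly higher in the shCTSZ libraries, by small amounts. Of the 103 genes 95 reached a mean of at least 1 TPM and were tested with limma on log2(TPM + 1), and 47 rose, 4 fell and 44 did not pass an adjusted p of 0.05. Over all 14874 rows tested 19.8% rose and 14.7% fell (34.5% in either direction), and over the 11906 protein-coding rows 23.3% rose and 14.6% fell. The median log2 fold change was 0.15 for the 95 genes, 0.04 for all rows and 0.06 for protein-coding rows. Changes that passed were modest, with a median size of 0.28 on the log2 scale and none above 0.69. Groups did not overlap, with every shCTSZ library above every shControl library, for 54 of the 95 (29.1% of all rows), and they lay entirely below for 6 (21.2% of all rows). Of the 47 rises 29 passed in every one of 17 alternative treatments of the data (16 for mitochondrially encoded genes), and of the 4 falls only that of MT-ND6 did. Of all 51 calls 38 held whichever library was left out.

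**Figure D1:**
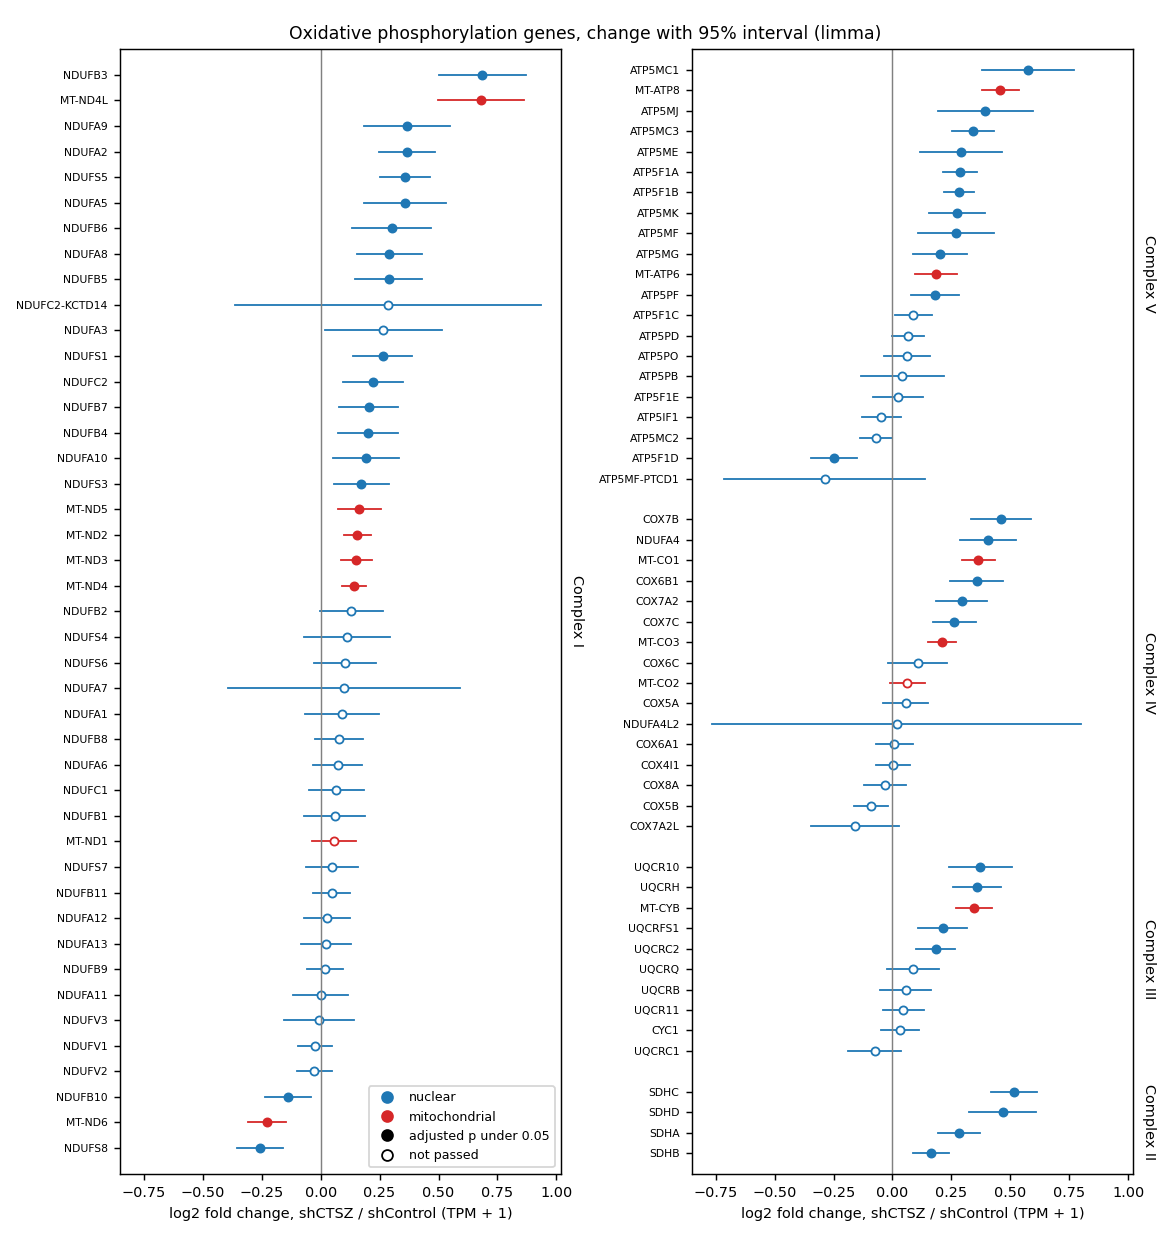
Log2 fold change (x axis, shCTSZ over shControl on TPM + 1) of 94 of the 95 tested genes, grouped by complex, with 95% intervals from limma. Filled points passed an adjusted p of 0.05, open points did not, and colour marks the genome. Most filled points lie right of 0, and 4 lie left of it: NDUFB10, MT-ND6, NDUFS8 and ATP5F1D.

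The other 8 genes were under the filter, all of them restricted isoforms or copies of a commoner subunit. COX4I2, COX6A2, COX8C and ATP5MGL were listed at 0 in every library. COX6B2, COX7A1, COX7B2 and UQCRHL reached 0.7, 1.51, 0.18 and 0.36 TPM in their highest library, and COX7A1 was at 0 in 4 of the 6 libraries. The lung isoform of subunit 4, the heart and muscle isoforms of subunits 6a and 7a, and the testis isoforms of subunits 6b, 7b and 8 were thus at or near 0.

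Complex II, succinate dehydrogenase, was the complex in which every subunit passed the test. It links the tricarboxylic acid cycle to the respiratory chain, and its subunits are the flavoprotein SDHA, the iron-sulfur protein SDHB and the membrane anchors SDHC and SDHD. The proximal promoters of SDHA, SDHB and SDHD are shown. No promoter sequence was at hand for SDHC, so its motifs are unknown. Capitals mark exact matches, on either strand, to motifs of regulators of mitochondrial genes, and a match does not show binding. The motifs are the consensus of nuclear respiratory factor 1 (NRF1), CCGGAAG for the ETS family to which GABPA belongs, and AAGATGGC for YY1. The NRF1 consensus is present in SDHA and at the start of the SDHD stretch. The stretches run from 110 bases before to 30 bases after the start of the gene in RefSeq (GRCh38.p14), 5′ to 3′ on the gene's strand.
SDHA (chr5:218210-218349, plus strand): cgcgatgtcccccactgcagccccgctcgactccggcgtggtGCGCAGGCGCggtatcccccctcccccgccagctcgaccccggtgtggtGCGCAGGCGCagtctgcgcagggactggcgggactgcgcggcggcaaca
SDHB (chr1:17054003-17054142, minus strand): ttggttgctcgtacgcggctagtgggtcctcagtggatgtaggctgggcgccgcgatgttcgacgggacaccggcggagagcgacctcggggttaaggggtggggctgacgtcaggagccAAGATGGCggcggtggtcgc
SDHD (chr11:112086763-112086902, plus strand): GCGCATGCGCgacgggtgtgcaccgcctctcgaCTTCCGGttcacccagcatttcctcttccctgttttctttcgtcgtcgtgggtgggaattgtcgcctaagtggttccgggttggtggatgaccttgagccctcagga

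SDHC (chr1:161314257-161375340, plus strand in GENCODE 29 on GRCh38) stood at 73.1, 73.2 and 69.9 TPM in the shControl libraries and 105, 106 and 99.8 TPM in the shCTSZ libraries. The libraries of each group lay within a few TPM of one another and far from the other group (log2 fold change 0.52 ± 0.04 SE, adjusted p = 0.000382). SDHD had 57.0, 53.8 and 49.6 TPM against 76.4, 71.5 and 74.6 TPM in shControl and shCTSZ libraries, again without overlap (log2 fold change 0.47 ± 0.06 SE, adjusted p = 0.00184). For SDHA the values were 149.8, 158 and 156 TPM in the shControl libraries and 194, 184 and 186 TPM in the shCTSZ libraries (log2 fold change 0.28 ± 0.04 SE, adjusted p = 0.00203). Its pseudogenes held TPM equal to 23.2% of its own, and near-identical copies share reads by estimate, so the level of SDHA is uncertain. SDHB moved least, with 222, 224 and 221 TPM against 255, 242 and 249.9 TPM (log2 fold change 0.16 ± 0.03 SE, adjusted p = 0.00824), and lost its call under median-of-ratios scaling (0.11, adjusted p = 0.0554) and after correction for GC content and transcript length, in which the trend of log2 values over both was taken out of each library (0.10, adjusted p = 0.0621). The anchors, SDHC and SDHD, thus rose by 0.52 and 0.47 on the log2 scale and the catalytic pair, SDHA and SDHB, by 0.28 and 0.16. SDHC overlaps CFAP126 and SDHD overlaps TIMM8B on the other strand, and whether the counting used strand is not given in the sources used here.

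Complex I, NADH dehydrogenase, has 37 nuclear rows in the table, of which 14 rose and 2 fell, with a median log2 fold change of 0.10. The rises numbered 9 without shControl replicate 2, and also under median-of-ratios scaling, without the filter on low values and without the mean-variance trend of the fit. Its 7 nuclear core subunits carry the flavin and the iron-sulfur clusters that lead electrons from NADH to ubiquinone. Among them, NDUFS1 (0.26, adjusted p = 0.00989) and NDUFS3 (0.17, adjusted p = 0.0336) rose and NDUFS8 fell, while NDUFV1 and NDUFV2, which receive the electrons, stood at -0.02 and -0.03 with overlapping groups, and NDUFS7 did not pass at 0.05. The NDUFS3 call was lost without any 1 of 5 libraries (all but shCTSZ replicate 2; adjusted p = 0.0521 to 0.0933). Of 29 accessory subunits 12 rose and 1 fell. The readthrough row NDUFC2-KCTD14 did not pass, at 5.51, 5.04 and 4.81 TPM against 8.63, 3.62 and 8.32 TPM, in which shCTSZ replicate 2 was the lowest of the 6 libraries; without that library its log2 fold change was 0.63 (adjusted p = 0.0126).

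NDUFB3, a small accessory subunit of the membrane arm, showed the largest rise of all members. It had 52.2, 60.1 and 48.1 TPM in the shControl libraries and 86.5, 86.0 and 86.3 TPM in the shCTSZ libraries (log2 fold change 0.69 ± 0.08 SE, adjusted p = 0.00119), so that the shCTSZ libraries were nearly identical and the shControl libraries spread more widely. NDUFA9, an accessory protein near the ubiquinone site, had 50.4, 58.1 and 53.5 TPM against 63.5, 73.3 and 73.1 TPM (log2 fold change 0.37 ± 0.08 SE, adjusted p = 0.0107), and NDUFA2, at the tip of the matrix arm, had 84.8, 92.3 and 92.5 TPM against 121, 112 and 116 TPM (log2 fold change 0.37 ± 0.05 SE, adjusted p = 0.0023). NDUFS5, an accessory subunit on the intermembrane side, was the most abundant of these nuclear complex I genes, at 362, 366 and 367 TPM in the shControl libraries and 502, 454 and 449 TPM in the shCTSZ libraries (log2 fold change 0.36 ± 0.05 SE, adjusted p = 0.00176). In all 4 the groups were clear of each other. NDUFA5 also rose, by 0.36 (adjusted p = 0.0105), from 22.5 ± 1.3 to 29.1 ± 2.2 TPM. NDUFB3 overlaps HYCC2, and NDUFA2 overlaps TMCO6 and IK, on the other strand.

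In the other direction, NDUFS8, a core subunit that holds a pair of iron-sulfur clusters, had 278, 281 and 303 TPM in the shControl libraries and 235, 246 and 241 TPM in the shCTSZ libraries (log2 fold change -0.26 ± 0.04 SE, adjusted p = 0.0041). Every shCTSZ library lay below every shControl library. NDUFB10, an accessory membrane-arm subunit, had 396, 427 and 409.7 TPM against 386, 358 and 375 TPM (log2 fold change -0.14 ± 0.04 SE, adjusted p = 0.0391), a narrow separation. NDUFB10 passed in 7 of 17 alternatives and NDUFS8 in 16 of 17. NDUFB10 no longer passed when replicate 2 or 3 of either group was left out (adjusted p = 0.0958 to 0.117). After the GC and length correction neither passed: NDUFS8 moved to -0.04 (adjusted p = 0.385) and NDUFB10 to 0.01 (adjusted p = 0.842).

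Complex III, the cytochrome bc1 complex, passes electrons from ubiquinol to cytochrome c. Of its 9 tested nuclear genes 4 rose and none fell by limma (0 also at an unadjusted p under 0.05). UQCRC1, counted here as an accessory subunit, was the single nuclear gene of the complex with a negative value, -0.08 (adjusted p = 0.256). UQCR10, a small membrane subunit, had 109, 103 and 110.2 TPM in the shControl libraries and 149, 139 and 131 TPM in the shCTSZ libraries (log2 fold change 0.37 ± 0.06 SE, adjusted p = 0.0032). UQCRH, the hinge protein that docks cytochrome c1 to cytochrome c, had 421, 444 and 461 TPM in the shControl libraries and 584, 569 and 546 TPM in the shCTSZ libraries (log2 fold change 0.36 ± 0.04 SE, adjusted p = 0.00141). Both stood well apart between groups. The Rieske iron-sulfur protein UQCRFS1 rose by 0.21 (adjusted p = 0.0102) and UQCRC2, also counted as accessory, by 0.18 (adjusted p = 0.0075). The UQCRFS1 call was lost after the GC and length correction (0.06, adjusted p = 0.273), and its pseudogenes held TPM equal to 8.85% of its own. CYC1, the cytochrome c1 that takes the electron from UQCRFS1, did not pass, with 239, 247 and 246 TPM against 257, 242 and 250.1 TPM (0.03, adjusted p = 0.494).

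Complex IV, cytochrome c oxidase, hands the electrons to oxygen, and all of its nuclear subunits surround a mitochondrially encoded core. NDUFA4, long assigned to complex I, is counted here with complex IV, where RefSeq places it under the name COXFA4, as is NDUFA4L2. Of 13 tested nuclear genes 5 rose and none fell by limma (1 at an unadjusted p under 0.05, COX5B), and the median was 0.06, close to that of all protein-coding rows as deposited. It was 0.029 without shControl replicate 1 and 0.087 without shCTSZ replicate 3, 0.0056 under median-of-ratios scaling and 0.14 after the GC and length correction. COX7B, a membrane subunit, had 33.5, 36.0 and 35.3 TPM in the shControl libraries and 50.6, 46.1 and 48.6 TPM in the shCTSZ libraries (log2 fold change 0.46 ± 0.05 SE, adjusted p = 0.00133). NDUFA4 had 31.8, 30.1 and 30.4 TPM in the shControl libraries and 40.9, 42.5 and 39.6 TPM in the shCTSZ libraries (log2 fold change 0.40 ± 0.05 SE, adjusted p = 0.00165). COX6B1, on the intermembrane side, had 289.5, 279 and 314 TPM against 384, 369 and 378 TPM (log2 fold change 0.36 ± 0.05 SE, adjusted p = 0.00205). The groups were separate for these 3 as for COX7A2 (0.29, adjusted p = 0.00368) and COX7C (0.26, adjusted p = 0.00294).

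The remaining complex IV subunits did not pass, among them the 3 most abundant. COX8A, at 910.3, 889.9 and 939.9 TPM in the shControl libraries and 931, 893 and 858 TPM in the shCTSZ libraries, COX4I1, the regulatory subunit that binds ATP, at 709, 743 and 747 TPM against 746, 718 and 741 TPM, and COX6A1, at 574, 569 and 576 TPM against 602, 567 and 559 TPM, each had overlapping groups. Their log2 fold changes were -0.03, 0.00 and 0.01, with 95% intervals of -0.12 to 0.06, -0.07 to 0.08 and -0.07 to 0.09. The direction of COX4I1 and COX6A1 turned to -0.05 and -0.04 under median-of-ratios scaling, and COX8A turned to 0.14 (adjusted p = 0.0267) after the GC and length correction. COX5B stood at 255, 255 and 262 TPM against 247, 241 and 238 TPM, with every shCTSZ library lower, but missed the threshold (-0.09, adjusted p = 0.0568); under median-of-ratios scaling, quantile normalisation and a fit of protein-coding rows it passed, at -0.14, -0.10 and -0.10 (adjusted p = 0.0336, 0.0492 and 0.0464). COX7A2L, which joins complex IV to complex III in supercomplexes, was 77.0, 67.0 and 62.9 TPM against 62.2, 64.1 and 58.3 TPM (-0.16, adjusted p = 0.165), against 0.29 for its paralogue COX7A2. NDUFA4L2, the hypoxia-linked paralogue of NDUFA4, had 5.83, 5.09 and 6.32 TPM against 3.35, 10.7 and 5.19 TPM; replicate 2 of shCTSZ alone stood above the shControl libraries, and without it the log2 fold change was -0.37 in place of 0.02, with neither past the threshold.

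Complex V, the ATP synthase, had 10 nuclear genes that rose and 1 that fell of 19 tested, with a median of 0.18. Under median-of-ratios scaling, and without the mean-variance trend, 6 rose. The c-ring, the rotor in the membrane, is built from 1 mature protein encoded by ATP5MC1, ATP5MC2 and ATP5MC3, which differ in their import sequences. ATP5MC1 had 109.8, 117 and 139 TPM in the shControl libraries and 181, 178 and 183 TPM in the shCTSZ libraries (log2 fold change 0.57 ± 0.08 SE, adjusted p = 0.00271), and ATP5MC3 had 117, 120.4 and 116 TPM in the shControl libraries and 154, 145 and 149.8 TPM in the shCTSZ libraries (log2 fold change 0.34 ± 0.04 SE, adjusted p = 0.00103). ATP5MC2, the most abundant of the 3 at 503, 499.7 and 525 TPM in the shControl libraries and 486, 485 and 484 TPM in the shCTSZ libraries, lay slightly lower in every shCTSZ library and did not pass (-0.07, adjusted p = 0.101; 0.02 with quantile normalisation). Pseudogenes of ATP5MC1 held TPM equal to 2.10% of its own.

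All 5 tested accessory subunits of the membrane part rose, by 0.20 to 0.39, led by ATP5MJ at 71.8, 79.7 and 73.7 TPM in the shControl libraries and 112, 96.3 and 89.7 TPM in the shCTSZ libraries (log2 fold change 0.39 ± 0.08 SE, adjusted p = 0.012) and ATP5ME at 353, 355 and 319.8 TPM against 467, 399.9 and 393 TPM (log2 fold change 0.29 ± 0.07 SE, adjusted p = 0.0223). In both, shCTSZ replicate 1 was the highest library. The ATP5MJ call was lost without shControl replicate 3 (adjusted p = 0.0513), and that of ATP5ME without any 1 of the shControl libraries (adjusted p = 0.0543 to 0.0833). ATP5MF and ATP5MG were each lost when any 1 of 4 libraries was left out (adjusted p = 0.0599 to 0.0715). Of the 5, 2 rose without shControl replicate 1 or 3, and 3 without shControl replicate 2 or shCTSZ replicate 1; under median-of-ratios scaling 2 rose. In the catalytic head, the alpha subunit ATP5F1A had 209.9, 206 and 213 TPM against 262, 253 and 253 TPM (log2 fold change 0.29 ± 0.03 SE, adjusted p = 0.000949) and the beta subunit ATP5F1B had 766, 773 and 758 TPM in the shControl libraries and 959, 914 and 920.3 TPM in the shCTSZ libraries (log2 fold change 0.28 ± 0.03 SE, adjusted p = 0.000676). In the central stalk, ATP5F1D, the delta subunit, had 221, 240.1 and 239 TPM in the shControl libraries and 192, 197 and 199 TPM in the shCTSZ libraries (log2 fold change -0.25 ± 0.04 SE, adjusted p = 0.00469), while ATP5F1C and ATP5F1E did not pass, at 0.09 and 0.02. The ATP5F1D call was lost after the GC and length correction (-0.05, adjusted p = 0.342). Of 4 peripheral stalk genes 1 rose, ATP5PF (0.18; lost without shControl replicate 2 or shCTSZ replicate 1 or 2, adjusted p = 0.0533 to 0.0609), and ATP5IF1, the inhibitor of the reverse reaction, did not pass at 366, 346 and 359.8 TPM against 355, 348 and 336 TPM (-0.05, adjusted p = 0.347). The readthrough row ATP5MF-PTCD1 was at 4.18 TPM or less and did not pass.

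The mitochondrial DNA is copied into RNA as long transcripts from each strand, which are cut into rRNAs, tRNAs and mRNAs. One strand gives 12 of the 13 protein-coding genes and the other gives MT-ND6 alone. Each gene is a row here, although some neighbouring genes share an mRNA molecule. Of the 13 genes 10 rose and 1 fell, with a median log2 fold change of 0.16. After the GC and length correction, and without the mean-variance trend, 5 rose, and 7 rose under median-of-ratios scaling. They made up 4.73, 4.76 and 4.51% of TPM in the shControl libraries and 5.77, 5.58 and 5.66% in the shCTSZ libraries, with no overlap.

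**Figure D2:**
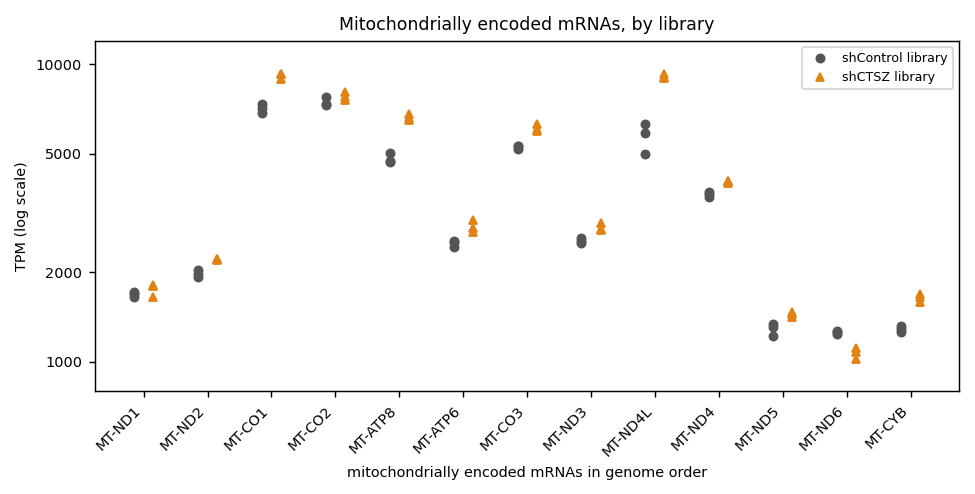
TPM (y axis, log scale) of the 13 mitochondrially encoded genes in each of the 3 shControl (circles) and 3 shCTSZ (triangles) libraries, in genome order. The shCTSZ libraries lie above the shControl libraries in 10 genes, overlap them in MT-ND1 and MT-CO2, and lie below them in MT-ND6.

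Among the mitochondrial mRNAs, the short reading frames that share bases with a longer neighbour rose most. MT-ND4L, a core subunit of complex I, overlaps MT-ND4 by 7 bases, and MT-ATP8 overlaps MT-ATP6 by 46 bases; each pair lies on 1 shared mRNA molecule. The junctions are shown with the shared bases in capitals (GENCODE 29, GRCh38, plus strand).
MT-ATP8, last 70 bases (chrM:8503-8572): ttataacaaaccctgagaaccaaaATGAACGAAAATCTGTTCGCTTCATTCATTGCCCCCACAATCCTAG
MT-ATP6, first 70 bases (chrM:8527-8596): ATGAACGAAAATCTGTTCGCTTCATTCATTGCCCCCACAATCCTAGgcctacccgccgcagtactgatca
MT-ND4L, last 70 bases (chrM:10697-10766): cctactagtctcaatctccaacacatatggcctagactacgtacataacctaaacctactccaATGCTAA
MT-ND4, first 70 bases (chrM:10760-10829): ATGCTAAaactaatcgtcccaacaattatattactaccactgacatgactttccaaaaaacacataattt

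MT-ND4L had 6278, 5887 and 4979.7 TPM in the shControl libraries and 9093, 8972 and 9262 TPM in the shCTSZ libraries (log2 fold change 0.68 ± 0.08 SE, adjusted p = 0.00119). Its shControl libraries were spread widely and its shCTSZ libraries were close together. MT-ND4, on the same mRNA, had 3673, 3723 and 3592 TPM in the shControl libraries and 4063, 3989 and 4067 TPM in the shCTSZ libraries (log2 fold change 0.14 ± 0.02 SE, adjusted p = 0.00321), a far smaller separation. The ratio of MT-ND4L to MT-ND4 in TPM was therefore 1.71, 1.58 and 1.39 in shControl and 2.24, 2.25 and 2.28 in shCTSZ libraries. MT-ATP8 had 5055, 4747 and 4702 TPM in the shControl libraries and 6809, 6594 and 6515 TPM in the shCTSZ libraries (log2 fold change 0.46 ± 0.03 SE, adjusted p = 0.000251) and MT-ATP6 had 2555, 2525 and 2437 TPM in the shControl libraries and 3003, 2735 and 2809 TPM in the shCTSZ libraries (log2 fold change 0.18 ± 0.04 SE, adjusted p = 0.0106). Their ratio went from 1.98, 1.88 and 1.93 to 2.27, 2.41 and 2.32. The gene models are 297 and 1378 bases long for MT-ND4L and MT-ND4 and 207 and 681 bases for MT-ATP8 and MT-ATP6. The part of transcript length and of read assignment in these ratios was not tested. MT-ATP6 passed in 12 of 16 alternatives, and nuclear copies of its sequence held TPM equal to 8.97% of its own.

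Among the other complex IV core subunits, MT-CO1, the catalytic subunit, had 7144, 7367 and 6847 TPM in the shControl libraries and 9277, 8959.9 and 9242 TPM in the shCTSZ libraries (log2 fold change 0.36 ± 0.03 SE, adjusted p = 0.000408). MT-CO3 rose from 5283 ± 63 to 6108 ± 175 TPM (log2 fold change 0.21 ± 0.02 SE, adjusted p = 0.00138). MT-CO2, which takes electrons from cytochrome c, stood near MT-CO1 in shControl and below it in shCTSZ libraries and did not pass, at 7370.1, 7751 and 7321 TPM in the shControl libraries and 8061, 7600.5 and 7789 TPM in the shCTSZ libraries (log2 fold change 0.06 ± 0.03 SE, adjusted p = 0.155). Its direction turned with quantile normalisation, where it passed as lower (-0.12, adjusted p = 0.00309). MT-CYB, the mitochondrially encoded subunit of complex III, had 1323, 1293 and 1264 TPM in the shControl libraries and 1693, 1587 and 1653 TPM in the shCTSZ libraries (log2 fold change 0.35 ± 0.03 SE, adjusted p = 0.000563), clear of overlap.

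Of the complex I core subunits MT-ND2, MT-ND3, MT-ND4 and MT-ND5 rose by 0.14 to 0.16, and all 4 lost the call after the GC and length correction. The MT-ND5 call was also lost without shCTSZ replicate 1 or 3 (adjusted p = 0.0632 and 0.0658). MT-ND2 went from 1982 ± 51 to 2208 ± 5.8 TPM, MT-ND3 from 2550.4 ± 45 to 2832 ± 84 TPM and MT-ND5 from 1291 ± 63 to 1446 ± 25 TPM. MT-ND1, first of the mRNAs after the rRNAs, did not pass, at 1657, 1698 and 1713 TPM in the shControl libraries and 1654, 1819.9 and 1798 TPM in the shCTSZ libraries (log2 fold change 0.06 ± 0.04 SE, adjusted p = 0.307); without shCTSZ replicate 1, its lowest library, it passed at 0.10 (adjusted p = 0.0409). MT-ND6 had 1244, 1267 and 1260.3 TPM in the shControl libraries and 1117, 1079 and 1026 TPM in the shCTSZ libraries (log2 fold change -0.23 ± 0.03 SE, adjusted p = 0.00318). It was the single mitochondrial mRNA with every shCTSZ library below every shControl library, and it passed as lower in 16 of 16 alternatives. Its share of the summed TPM of the 13 genes went from 2.70 ± 0.087% to 1.90 ± 0.071% (n = 3 and 3). MT-ND6 occupies chrM:14149-14673 on the minus strand, and without knowledge of strand in the counting, reads from its antisense RNA cannot be told apart from its own.

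The mitochondrial rRNAs, which poly(A)-based libraries carry in part, moved unequally. MT-RNR1 rose, with 1214, 1273 and 1213 TPM against 1497, 1436 and 1458 TPM (log2 fold change 0.25 ± 0.03 SE, adjusted p = 0.00135), while MT-RNR2 stood at 4632, 4923 and 4720.4 TPM against 4644, 5194 and 5007 TPM (log2 fold change 0.06 ± 0.04 SE, adjusted p = 0.361). All mitochondrial tRNAs were listed at 0.

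Set side by side, the summed TPM of the nuclear genes was 8.59% higher in shCTSZ (17122, 17182 and 17510.3 against 19300.0, 18509 and 18453 TPM). That of the mitochondrially encoded genes was 21.5% higher (47319.9, 47559 and 45111 against 57686, 55794 and 56571 TPM). The ratio of mitochondrial to nuclear sums was 2.76, 2.77 and 2.58 in shControl and 2.99, 3.01 and 3.07 in shCTSZ libraries. In each complex that has both, the mitochondrial sum differed more than the nuclear one: 23.8 and 6.50% in complex I, 27.1 and 11.8% in complex III, 16.1 and 5.26% in complex IV, and 29.3 and 11.6% in complex V. Complex II, all nuclear, was 22.4% higher. No sum overlapped between groups. A sum over members has no test of its own here, and the difference between genomes was not tested.

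**Figure D3:**
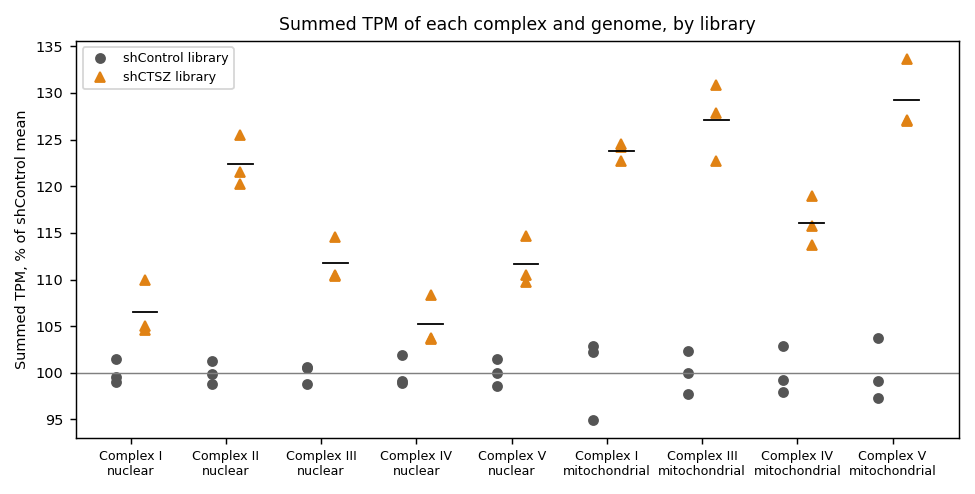
Summed TPM of the genes of each complex and genome in each library, as a percent of the mean of the 3 shControl libraries (y axis); circles are shControl, triangles shCTSZ, and bars the shCTSZ means. The shCTSZ libraries lie above the shControl libraries in all 9 sums, least in complex IV nuclear genes (5.26%) and most in complex V mitochondrial genes (29.3%).

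A few genes carry much of the mitochondrial sums. Without MT-ND4L and MT-ATP8, an alternative chosen after seeing the data, the mitochondrial sum was 13.4% higher. That of complex I was then 7.44% higher, near its nuclear 6.50%, and that of complex V 13.7%, near its nuclear 11.6%. Under median-of-ratios scaling the differences of all sums were smaller. The groups then overlapped in the sum of all nuclear members (4.90%) and in the nuclear sums of complexes I and IV (2.89 and 1.69%). By medians of single genes the genomes stood closer, at 0.11 for 82 nuclear and 0.16 for 13 mitochondrial genes, and after the GC and length correction their order turned, at 0.15 and 0.11.

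Rises and falls differed in the base composition of their transcripts. Nuclear members that rose had a median GC content of 45.9%, those that did not pass 51.7%, and the 3 that fell 62.7%. All genes tested showed the same order, with 46.7% for rises, 50.2% for those not passing and 57.0% for falls. After the GC and length correction 44 members rose and 2 fell, with 18.5% and 11.8% over all rows. Of the 51 original calls 36 remained, and 10 other members passed. COX7A2L then fell (-0.27, adjusted p = 0.0335) with MT-ND6 (-0.29, adjusted p = 0.00422), and NDUFA3, NDUFA11, NDUFA13, NDUFB11, NDUFS7, NDUFV1, CYC1, UQCR11 and COX8A rose, all of which have transcripts of 57.4% GC or more. The large rises remained: SDHC was at 0.49, NDUFB3 at 0.63, ATP5MC1 at 0.61, MT-ND4L at 0.65 and MT-CO1 at 0.30. The source of the GC trend was not tested.

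**Figure D4:**
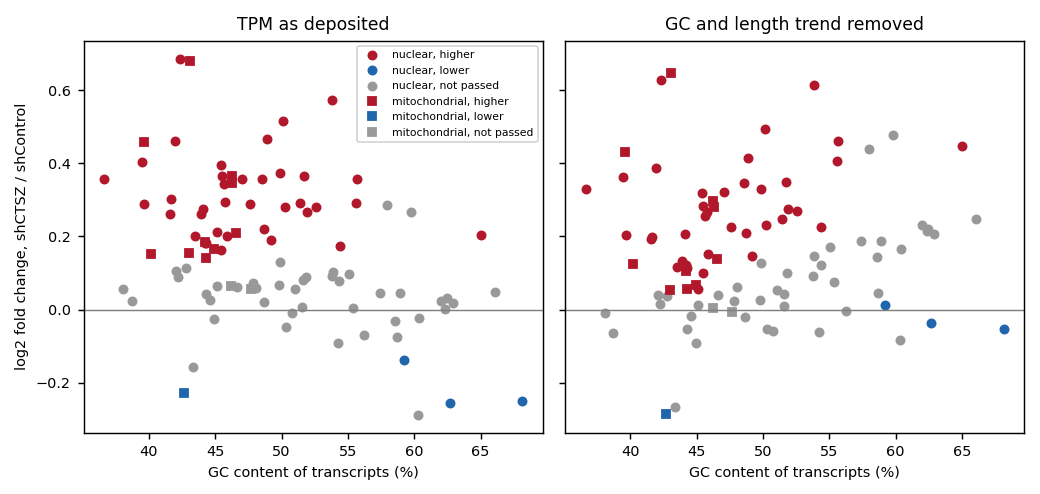
Log2 fold change (y axis) against the GC content of the transcripts in percent (x axis) for the 95 members, as deposited (left) and after the GC and length correction (right). Circles are nuclear and squares mitochondrial genes, and colours in both panels mark the calls on the values as deposited. On the left the 3 nuclear falls lie above 59% GC, and on the right they lie near 0.

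In the promoters, the motifs named above were searched on both strands over 300 bases, 250 before to 50 after the start in RefSeq, for the 72 of 90 nuclear members that the promoter table holds. The NRF1 consensus was in 17 (23.6%), against 10.3% of 14838 promoters of tested rows and 5.78% of all 35116 in the table; the ETS motif CCGGAAG was in 20 (27.8%), against 17.5% and 10.3%; and the YY1 motif AAGATGGC was in 11 (15.3%), against 4.80% and 2.89%. At least 1 of the 3 was in 39 promoters (54.2%), against 28.8% and 17.0%. For members the first promoter listed under each symbol was taken, while the backgrounds count every promoter listed. The 72 members include 4 under the filter. A match is a description and does not show binding. A motif was in 18 of 30 members that rose (60.0%) and 20 of 36 that did not pass (55.6%). The promoters of the largest nuclear rises, NDUFB3 and ATP5MC1, and of NDUFS8, which fell, hold none of the 3 in the whole window, and the stretches shown have no capitals; this says nothing of the factors themselves.
NDUFB3 (chr2:201071891-201072030, plus strand): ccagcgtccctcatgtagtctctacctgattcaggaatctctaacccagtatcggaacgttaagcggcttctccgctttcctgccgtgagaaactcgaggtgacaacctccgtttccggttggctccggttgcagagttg
ATP5MC1 (chr17:48892677-48892816, plus strand): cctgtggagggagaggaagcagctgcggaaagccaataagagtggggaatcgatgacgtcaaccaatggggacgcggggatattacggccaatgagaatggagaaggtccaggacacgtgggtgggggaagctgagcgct
NDUFS8 (chr11:68030571-68030710, plus strand): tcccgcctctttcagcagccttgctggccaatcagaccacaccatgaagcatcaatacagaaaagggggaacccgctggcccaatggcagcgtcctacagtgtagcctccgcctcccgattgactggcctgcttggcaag

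Genes that build and serve the chain were followed in 10 lists of 162 genes, of which 161 were tested. Of these 40 rose and 10 fell, with a median of 0.09. The share of rises was 24.8%, while of protein-coding rows 23.3% rose and 14.6% fell. By list the share of rises ran from 0 to 34.8%, and whether any list differs from all rows was not tested. Without a filter on low values 26 list genes rose, and the share over all rows in that setting is not given here. Assembly factors of complex IV rose in 8 of 23 cases and none fell by limma (0 also at an unadjusted p under 0.05), with a median of 0.17. Among them COA7 had 15.5, 16.5 and 15.5 TPM against 24.7, 22.3 and 24.4 TPM (log2 fold change 0.56 ± 0.06 SE, adjusted p = 0.00116), and COA3 and COA6 rose by 0.32 and 0.30. The list had 4 rises without shControl replicate 1 or shCTSZ replicate 2, 5 without shCTSZ replicate 1, and 4 after the GC and length correction or without the filter, while COA7, COA3 and COA6 passed in all 17 alternatives. Of complex I assembly factors 3 of 18 rose, among them FOXRED1 (0.24) and NDUFAF7 (0.29), and ECSIT fell by 0.24. The ECSIT call was lost without shControl replicate 2 or 3 (adjusted p = 0.0604 and 0.0584) and after the GC and length correction (-0.07), as was that of NDUFAF7 after the correction (0.20, adjusted p = 0.0525). UQCC1 rose by 0.25 and UQCC3 fell by 0.39, as the 2 of 10 assembly genes of complexes II and III that passed. None of 5 complex V assembly genes passed by limma (0 also at an unadjusted p under 0.05), with TMEM70 at 0.11 (adjusted p = 0.234).

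Of 29 genes of mitochondrial DNA maintenance, transcription and RNA handling 9 rose and none fell by limma (0 also at an unadjusted p under 0.05), with a median of 0.17. TFAM, which packs mitochondrial DNA and starts its transcription, had 30.1, 30.6 and 21.7 TPM in the shControl libraries and 44.8, 51.4 and 50.1 TPM in the shCTSZ libraries (log2 fold change 0.82 ± 0.13 SE, adjusted p = 0.00413), the shControl value being lowest in replicate 3. MTERF4, which acts in mitochondrial ribosome assembly, rose by 0.40 and HSD17B10, a part of the mitochondrial RNase P that frees tRNAs, by 0.22. Of 7 tested regulators in the nucleus NRF1 (0.23, adjusted p = 0.0389) and GABPA (0.28, adjusted p = 0.0254) rose and ESRRA, an orphan nuclear receptor that drives respiratory genes, fell (-0.23, adjusted p = 0.0242). These 3 calls depended on the treatment of the data. That of NRF1 was lost in 10 of 17 alternatives (among single libraries, without any but shCTSZ replicate 1), that of GABPA in 7 (without replicate 2 or 3 of either group) and that of ESRRA in 5 (without shControl replicate 3 or shCTSZ replicate 1 or 2). After the GC and length correction they stood at 0.15, 0.15 and -0.03. GABPA overlaps the member ATP5PF on the other strand. The coactivator PPARGC1A was at 0.27 TPM or less in every library.

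Of 17 genes that serve the carriers between complexes, those of cytochrome c and ubiquinone synthesis, 2 rose and 4 fell; 1 rose without shCTSZ replicate 2 or 3 or any 1 of the shControl libraries. CYCS, the somatic cytochrome c that shuttles electrons from complex III to IV, had 111, 102 and 106 TPM in the shControl libraries and 90.1, 90.2 and 93.1 TPM in the shCTSZ libraries (log2 fold change -0.22 ± 0.04 SE, adjusted p = 0.00851). Every shCTSZ library was lower. COQ7 and COQ5, enzymes of ubiquinone synthesis, fell by 0.43 and 0.37. In the tricarboxylic acid cycle and pyruvate dehydrogenase 6 of 18 rose and none fell by limma (0 also at an unadjusted p under 0.05), among them DLAT, the acetyltransferase of pyruvate dehydrogenase, with 30.6, 28.2 and 25.5 TPM against 43.0, 44.2 and 43.0 TPM (log2 fold change 0.61 ± 0.07 SE, adjusted p = 0.00121), PDHX (0.48) and IDH3B (0.28). Of 25 import genes 8 rose, with TOMM6 at 0.49 and the receptor TOMM70 at 0.47, and 2 fell. Without shControl replicate 3 the rises numbered 4, without shControl replicate 1 or shCTSZ replicate 1 they numbered 5, and under median-of-ratios scaling 4 rose and 4 fell. Of 9 genes of the cristae APOOL rose by 0.36, a call lost without shControl replicate 2 or shCTSZ replicate 1 or 2 (adjusted p = 0.0627 to 0.0765), and MICOS13 fell by 0.22, lost after the GC and length correction (-0.04).

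The number of rises among members varied with the treatment of the data. Under median-of-ratios scaling 34 rose and 5 fell, with 16.6% and 17.9% over all rows, and without the mean-variance trend 33 rose, with 18.3% over all rows. When TPM were rescaled without mitochondrially encoded genes 38 nuclear members rose and 2 fell, with 21.3% and 13.8% over all rows, and with the replicate number as a block 42 members rose, with 15.0% over all rows.

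**Figure D5:**
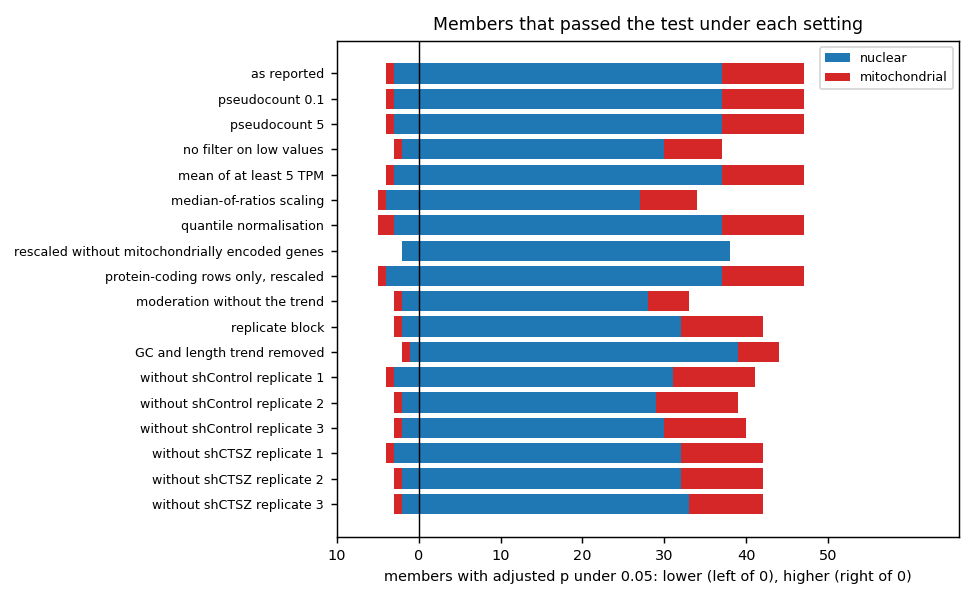
Number of members past an adjusted p of 0.05 (x axis) as reported and under each of 17 alternatives, with rises right and falls left of 0, and colour for the genome. Rises number 33 to 47 and falls 2 to 5 where both genomes were fitted, and the setting without mitochondrially encoded genes counts nuclear genes alone.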

How the data were processed

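RNA of 6 PC3 libraries, 3 shControl and 3 shCTSZ by their descriptions, was sequenced after a SMARTer mRNA-seq preparation of TRIzol total RNA, per the labels' protocols. The authors deposited 1 table of TPM for 61895 rows; fastp, RSEM and GRCh38.p13 are named in the submitters' processing notes. Which aligner and annotation were used, and whether strand was, is not given in the sources used here. Depth behind TPM is unknown, and counting intervals were not computed. The p-values rest on the spread between these libraries alone.

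Rows with a mean of at least 1 TPM (14874) were fitted with limma 3.58.1 (R 4.3.3) on log2(TPM + 1), a model of group alone with a mean-variance trend, and p-values were adjusted over these rows by Benjamini-Hochberg at 0.05; fold changes on this scale understate those of low genes. Positions, lengths and GC content came from GENCODE 29, and promoters from RefSeq (GRCh38.p14).

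The members and the 10 lists were chosen with earlier results of these data known. Named were the 13 mitochondrial genes, complex II, and up to 4 nuclear rises and falls per complex. Isoforms, members under the filter and up to 3 genes per list were also named. Other members were named after their values were seen. The values of 1 tested member and of some marker genes are not reported here. The alternatives were pseudocounts of 0.1 and 5, no filter, a mean of 5 TPM, median-of-ratios and quantile scaling, rescaling without mitochondrially encoded genes or to protein-coding rows, no trend, a replicate block, a GC and length correction, which subtracts a fitted trend over both within a library, by splines with 5 degrees of freedom (14324 rows), and leaving out each library. Sums without MT-ND4L and MT-ATP8 were added after seeing the data. Python 3.11.15, pandas 2.3.3 and matplotlib 3.10.9 made tables and plots.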

Additional observations from a re-analysis of the deposited data

How the results depend on the processing

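Counts of members that passed ranged from 33 to 47 rises and 2 to 5 falls over the alternatives, the fewest rises coming without the mean-variance trend and the fewest falls after the GC and length correction (2, against 5 for the lists, where the reported values are 4 and 10). Without a filter on low values 26 genes of the lists rose in place of 40. Leaving out 1 library gave 39 to 42 rises and 3 or 4 falls. Over all rows the 17 alternatives together gave 1981 to 3165 rises and 1657 to 2661 falls, with 2950 and 2185 as reported. The number of rows tested differed between some of them. The deviations of same-numbered libraries from their group means correlated at -0.09, -0.02 and -0.04. With 3 libraries per group such values cannot show if libraries were paired. The numbers come from the descriptions, and the titles number the shCTSZ libraries differently. With the replicate block 42 members rose and 3 fell. Under median-of-ratios scaling the nuclear median was 0.060 (0.054, 0.32, 0.039, 0.0056 and 0.13 in complexes I to V) and the mitochondrial one 0.11 (0.10, 0.30, 0.16 and 0.27 in complexes I, III, IV and V). Over all rows tested the median was -0.0015 under that scaling, against 0.044 as reported. After the GC and length correction the nuclear median was 0.15 (0.16, 0.12, 0.14 and 0.11 in complexes I, III, IV and V) and the mitochondrial one 0.11 (0.057, 0.28, 0.14 and 0.27). With quantile normalisation the mitochondrial median was 0.21, that of complex I 0.19 and that of complex V 0.38. Leaving out 1 library gave nuclear medians of 0.11 to 0.15 over all, 0.092 to 0.15 in complex I, 0.046 to 0.12 in complex III (lowest without shCTSZ replicate 1) and 0.029 to 0.087 in complex IV (0.029 without shControl replicate 1, 0.037 without shCTSZ replicate 2, 0.087 without shCTSZ replicate 3), and 0.13 to 0.16 in mitochondrial complex I. Sums under median-of-ratios scaling were higher by 4.90% for nuclear members, with overlapping groups, and by 17.4% for mitochondrial members, without overlap. By complex the nuclear sums were higher by 2.89, 18.3, 8.01, 1.69 and 7.86% (I to V) and the mitochondrial ones by 19.7, 22.9, 12.2 and 24.9% (I, III, IV and V). Without MT-ND4L and MT-ATP8, which had the largest mitochondrial rises (0.68 and 0.46), the mitochondrial sum was higher by 13.4%, complex I by 7.44% and complex V by 13.7%. Directions turned for COX4I1 (-0.046 with median-of-ratios scaling, -0.000794 in protein-coding rows, -0.019 to 0.021 leaving out 1 library), COX6A1 (-0.042, and -0.025 to 0.029 leaving out 1 library), NDUFA4L2 (-0.025, -0.00198 with quantile normalisation, -0.37 to 0.34 leaving out 1 library), ATP5MC2 (0.023) and MT-CO2 (-0.12) with quantile normalisation, and COX8A (0.14), MT-ND1 (-0.0065) and NDUFB10 (0.012, reported as a fall of -0.14) after the GC and length correction. The cause of these shifts was not tested. TPM give no read totals, so what depth limits is unknown.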
